A study of Mus musculus with 12 samples.

Results

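The 31 genes described here carry fatty acids into mitochondria and peroxisomes and oxidise them there, or control that pathway in liver. They were taken by gene symbol, from a list made with earlier results of these data known. They are PPAR-alpha (Ppara) and its secreted target Fgf21, 2 genes of fatty acid binding and activation, 5 of carnitine transfer, 8 of mitochondrial beta-oxidation, 3 of electron transfer, 4 of peroxisomal beta-oxidation, 4 acyl-CoA thioesterases, and Bdh1, Pdk4 and Vnn1. All 31 symbols were present among the 34844 gene names of the arrays, and all 31 were among the 26518 genes that passed the filter on dim probes. Of them, 30 were well above background on all 12 arrays, and Fgf21 was above background on 7 arrays and passed the filter through wild-type HCC alone.

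The arrays were single-colour Agilent arrays hybridised with total RNA of male mice of the strain 129/SV/B6. The 4 groups held 3 arrays each: survivin-deleted hepatocellular carcinoma (HCC, genotype Mxcre+), wild-type HCC (Mxcre-), survivin-deleted non-cancerous liver (Mxcre+) and wild-type non-cancerous liver (Mxcre-), the last 2 called liver here. All 4 groups had received diethylnitrosamine (DEN), a liver carcinogen, at 50 mg/kg at 2 weeks of age, poly(IC) 8 months later, and a bone marrow graft after irradiation. Tissue was collected 1 week after poly(IC) and 2 months after the graft. Mx-Cre is a recombinase under an interferon-responsive promoter that poly(IC) induces in hepatocytes and in blood cells, and survivin (gene Birc5) is a mitotic and anti-apoptotic protein. The labels do not describe the survivin allele and leave unsaid whether replicate arrays are different animals, so the p-values below measure only the spread between these samples.

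As background, a long-chain fatty acid in a hepatocyte is bound by FABP1, activated to an acyl-CoA by an acyl-CoA synthetase, passed into the mitochondrion as an acylcarnitine by CPT1A, SLC25A20 and CPT2, and shortened by repeated rounds of dehydrogenation, hydration, dehydrogenation and thiolysis. Very long chains are shortened first in peroxisomes by a parallel set of enzymes. PPAR-alpha, a nuclear receptor that binds DNA together with RXR, is known as the main transcriptional activator of both routes in fasted liver, and the resulting acetyl-CoA feeds ketone body synthesis.

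PPAR-alpha and RXR bind direct repeats of a hexamer separated by 1 base. The repeat was searched on both strands as AGGNCANAGGNCA in the promoter windows of RefSeq (GRCm38), which run from 250 bases before to 50 bases after each gene's start. It was found in 125 of 32851 windows (0.381%). Of the 31 genes, 27 had 30 windows, and 1 window, that of Fabp1, held the repeat. Crat, Acaa2, Decr1 and Vnn1 had no window. The Fabp1 window before the start is printed because Fabp1 is the gene of lowest p for deletion in liver among the 31. It lies at chr6:71199629-71199878 on the plus strand, and the capitals mark the repeat, read on the reverse strand, at 67 to 55 bases before the start. A match of letters is a description and not a measured binding site.
Fabp1 promoter: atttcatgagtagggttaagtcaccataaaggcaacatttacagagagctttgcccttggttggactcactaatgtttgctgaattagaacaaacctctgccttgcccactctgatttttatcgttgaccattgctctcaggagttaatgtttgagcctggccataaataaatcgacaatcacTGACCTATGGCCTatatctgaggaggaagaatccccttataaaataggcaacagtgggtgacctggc

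Several members have close relatives in the genome, and parts of their probes are shown. The first 30 of 60 bases are given for the thioesterases Acot1 to Acot4, a gene cluster on chromosome 12, and for the peroxisomal thiolases Acaa1a and Acaa1b on chromosome 9 (mm9, the build of the arrays). The probes of any 2 members of a family shared at most 9 consecutive bases of 60. Probes were set only against each other, and their match to the whole transcripts of the relatives was not tested.
Acot1 probe: tctatggaaactggagctatccaagaaaag
Acot2 probe: ggggaaacctcatatatattatcacaatgt
Acot3 probe: gtgtacacacacacatatacacacaagcac
Acot4 probe: tgctggatgacatgaaattcatgtttaggg
Acaa1a probe: ccctggttgcaaagccatttgtacctttga
Acaa1b probe: tctgcgtgggacactcagcagtggaggagt
These probes lie at chr12:85358561-85358590, chr12:85334071-85334100, chr12:85400452-85400481, chr12:85384821-85384850 and chr9:119259353-119259382 on the plus strand and at chr9:119057356-119057385 on the minus strand.

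Levels are given as log2 processed signal minus the 75th percentile of the array, so that 0 is the level below which 75% of the probes of that array lie. Replicate 1 of every group was on slide 1 (4 arrays) and replicates 2 and 3 on slide 2 (8 arrays). For 2 arrays the scanner file and the deposited value table go against each other. The scanner file labelled wild-type HCC replicate 1 holds the values of the table's column for survivin-deleted liver replicate 1, and vice versa (r = 1.00, against 0.970 for a scanner file and the column of its label), so values are also given with these 2 arrays exchanged. Birc5, the deleted gene, was at 0.06, 0.17 and -0.08 in survivin-deleted HCC, against 0.80, 0.82 and 1.76 in wild-type HCC, and at 2.42, -0.10 and -1.07 in survivin-deleted liver, against 2.85, 0.51 and 0.76 in wild-type liver, lower on each slide in both tissues. Of its other 2 probes, 1 was higher in survivin-deleted HCC on slide 1, at -0.24 against -0.57 in wild-type HCC. With the 2 arrays exchanged that pair was at -0.24 against 0.70. The fitted changes of the 3 probes in HCC were -1.79, -1.09 and -1.08 as labelled, and -2.36, -1.51 and -1.62 with the exchange. In liver all 3 probes also fell by more with the exchange, such as -1.81 against -1.24 for the probe at -1.79 in HCC. Which labels are right was not tested. Whether any of the 3 probes lies in the deleted part is not given in the labels. The mean level of 15 hepatocyte markers, all detected on all 12 arrays, was 5.16 to 5.41 in survivin-deleted HCC, 5.31 to 5.46 in wild-type HCC, 5.20 to 5.28 in survivin-deleted liver and 5.44 to 5.55 in wild-type liver. Survivin-deleted liver replicate 3 stood apart: the mean of 5 adipocyte markers was 3.00 there and -1.93 to -0.63 on the other 11 arrays, and that of 5 muscle markers was -0.21 there and -4.08 to -2.55 elsewhere. Counts of members in liver, and the single members whose reading changed, are therefore also given without this array. The other gene lists and the marker lists are given with it only.

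The first question was whether deletion of survivin changed the oxidation genes in the tumours and in the liver around them. Most members were lower in survivin-deleted tissue, by small amounts, and none passed the test. In HCC 20 of 31 members (64.5%) were lower, where 52.6% of all genes tested were lower, and the median member change was -0.24 on the log2 scale against -0.02 over all genes. In liver 26 of 31 (83.9%) were lower, where 44.9% of all genes were lower, and the medians were -0.28 for the members and 0.05 for all genes. These counts describe a direction and are not a test, since the members share arrays and the list was chosen with earlier results in view.

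At an adjusted p under 0.05 (limma, slide as a block, Benjamini-Hochberg over 26518 genes), 0 of 31 members and 0% of all genes were called for deletion in HCC, and 0 of 31 and 0% for deletion in liver. At an unadjusted p under 0.05, 6 members were past the threshold in HCC, where 7.91% of all genes were. Of these, 5 were lower (4.46% of all genes) and 1 was higher (3.45% of all genes). The HCC count moved with the fit, and so did the share of all genes. It was 1 without the slide block (1.84% of all genes) and 4 with the 2 arrays exchanged (8.88%). It was 3 without survivin-deleted HCC replicate 1 (9.82%), 3 without survivin-deleted HCC replicate 2 (6.11%), 2 without wild-type HCC replicate 2 (5.55%) and 1 without wild-type HCC replicate 3 (4.42%). In liver 3 members were past the unadjusted threshold, where 11.8% of all genes were, and all 3 were lower (3.47% of all genes). The liver count was 0 without the slide block (3.03% of all genes), 1 on slide 2 only (11.6%) and 5 with the replicate number in place of slide as the block (10.6%). It was 0 without survivin-deleted liver replicate 2 (11.3%), 1 without survivin-deleted liver replicate 1 (7.86%), 1 without wild-type liver replicate 3 (14.1%), 5 without wild-type liver replicate 2 (10.4%) and 6 without survivin-deleted HCC replicate 2 (12.3%). Without survivin-deleted liver replicate 3 it was 8, where 9.41% of all genes were past the threshold, and 25 members were lower, where 44.9% of all genes were.

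The direction was similar in the other fits run on these counts. With the 2 arrays exchanged, 20 members were lower in survivin-deleted HCC (52.7% of all genes) and 25 in survivin-deleted liver (42.6% of all genes). The median member change was then smaller in HCC, at -0.13 against -0.02 over all genes. In liver it was -0.30 against 0.06 over all genes. On slide 2 alone, 22 members were lower in survivin-deleted HCC (45.2% of all genes) and 25 in survivin-deleted liver (46.7% of all genes). Groups that did not overlap were seen for 5 members lower in survivin-deleted HCC, namely Slc25a20, Crat, Acadm, Hadha and Acaa2, where 2.7% of all genes had such groups. Hadha and Acaa2 overlapped when the 2 arrays were exchanged. In liver 4 members, Ppara, Cpt1a, Acads and Acaa2, were lower without overlap, where 3.23% of all genes were.

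**Figure D1:**
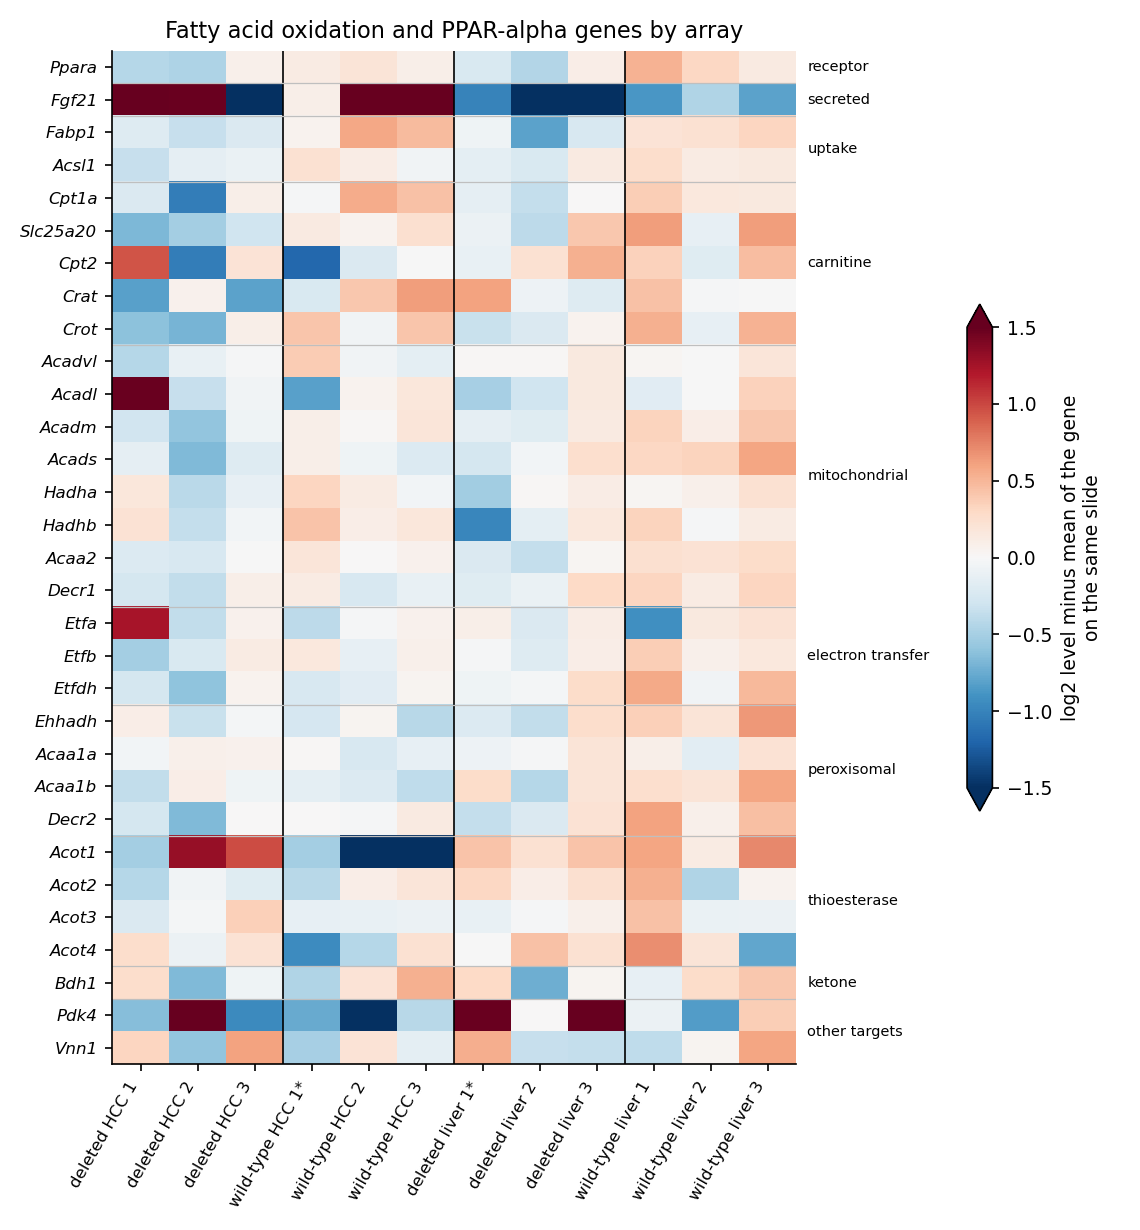
Level of each of the 31 genes on each of the 12 arrays (columns, by group and replicate), as log2 level minus the mean of that gene on the same slide, with genes in rows by role and colours from -1.5 to 1.5. Asterisks mark the 2 arrays that match each other's column in the value table. Fgf21, Acot1 and Pdk4 vary most between arrays, and most other rows differ by under 1 between groups.

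Ppara encodes the receptor itself. Its level was 2.60, 2.91 and 3.46 in survivin-deleted HCC, against 3.15, 3.57 and 3.47 in wild-type HCC, and the groups overlapped. It was 2.80, 2.93 and 3.48 in survivin-deleted liver, against 3.54, 3.69 and 3.52 in wild-type liver. All 3 survivin-deleted livers were below all 3 wild-type livers, with 3.48 in survivin-deleted liver replicate 3 next to 3.52 in wild-type liver replicate 3. The log2 change was -0.40 (SE 0.21, limma adjusted p = 0.665) in HCC and -0.52 (SE 0.21, limma adjusted p = 0.416) in liver. In liver, where it was at an unadjusted p under 0.05, the change was -0.75 on slide 1 and -0.40 on slide 2, -0.40 with the 2 arrays exchanged, then past no threshold, and -0.67 without survivin-deleted liver replicate 3. The gene had 3 probes, all on chromosome 15, and all 3 gave a lower fitted level after deletion in both tissues, by -0.84, -0.40 and -0.32 in HCC and by -0.46, -0.52 and -0.36 in liver. The levels above are those of the probe at -0.40 in HCC. For the other 2 probes the liver groups overlapped. In replicate 3 they were higher in survivin-deleted liver, at 2.70 against 2.59 and at 2.20 against 1.84 in wild-type liver. The probe at -0.32 was also higher in survivin-deleted HCC replicate 3, at 2.10 against 1.82 in wild-type HCC.

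Fgf21, a hormone that liver secretes in fasting under PPAR-alpha, was near background and varied most. It was at -2.60, -3.36 and -6.37 in survivin-deleted HCC and at -4.29, -2.60 and -1.40 in wild-type HCC, above background on 2 and 3 of 3 arrays. In survivin-deleted liver it was at -5.39, -7.37 and -6.72, and in wild-type liver at -5.25, -5.31 and -5.65, above background on 1 of 3 arrays in each. The deletion change in HCC was 1.69 on slide 1 and -2.87 on slide 2, so the fitted value of -1.35 (SE 0.98) has no common direction behind it.

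Fatty acid binding and activation were represented by Fabp1, the abundant cytosolic carrier of liver, and Acsl1, the main long-chain acyl-CoA synthetase. Fabp1 was at 5.56, 4.67 and 4.80 in survivin-deleted HCC, against 5.80, 5.59 and 5.48 in wild-type HCC. In survivin-deleted liver it was at 5.69, 4.21 and 4.77, against 5.96, 5.25 and 5.33 in wild-type liver. On each slide the survivin-deleted arrays were below the wild-type arrays of the same tissue, although across slides the groups overlapped. The log2 change was -0.62 (SE 0.22, limma adjusted p = 0.582) in HCC and -0.63 (SE 0.22, limma adjusted p = 0.416) in liver. Both were at an unadjusted p under 0.05, also with the 2 arrays exchanged, at -0.58 and -0.59, and leaving out survivin-deleted liver replicate 3 gave -0.69 in liver. Without survivin-deleted liver replicate 2 the liver change was -0.40 and above that threshold. Fabp1 is also the gene whose promoter window holds the repeat printed above. Acsl1 had log2 changes of -0.29 in HCC and -0.26 in liver, neither of them at an unadjusted p under 0.05.

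Of the 5 carnitine transfer genes, 4 were lower in survivin-deleted HCC at an unadjusted p under 0.05, where 4.46% of all genes were, and none at an adjusted p. With the 2 arrays exchanged 2 of these, Cpt1a and Crat, stayed past the unadjusted threshold. The median log2 change over the 5 was -0.66, and -0.56 with the exchange. Cpt1a encodes the outer-membrane enzyme that forms acylcarnitines and sets the rate of entry into mitochondria. Its level was 3.19, 2.27 and 3.40 in survivin-deleted HCC, against 3.38, 3.86 and 3.75 in wild-type HCC, and 3.40 in survivin-deleted HCC replicate 3 lay just above the lowest wild-type array. The change was -0.71 (SE 0.29, limma adjusted p = 0.616), and -0.37 without survivin-deleted HCC replicate 2, its lowest array. Slc25a20 is the carrier that exchanges acylcarnitine for carnitine across the inner membrane. It was at 1.03, 0.95 and 1.15 in survivin-deleted HCC, against 1.84, 1.51 and 1.69 in wild-type HCC, with no overlap and a spread within survivin-deleted HCC of 0.10 (SD, n = 3). The log2 change was -0.64 (SE 0.27, limma adjusted p = 0.624), -0.81 on slide 1 and -0.55 on slide 2, and the exact two-sided permutation p was 0.1, the smallest that 3 against 3 arrays allow. With the 2 arrays exchanged it was -0.56 and no longer at an unadjusted p under 0.05.

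Crat and Crot encode acyltransferases for short and medium chains, in mitochondria and peroxisomes and in peroxisomes. Crat, a gene of low signal here, was at -3.23, -3.47 and -4.33 in survivin-deleted HCC, against -2.65, -3.13 and -2.91 in wild-type HCC, again without overlap. The change was -0.78 (SE 0.34, limma adjusted p = 0.624), and -1.06 with the 2 arrays exchanged. Crot was at 2.89, 3.63 and 4.42 in survivin-deleted HCC, against 3.92, 4.27 and 4.74 in wild-type HCC. On slide 1 the survivin-deleted array was below the wild-type array, while on slide 2 the groups overlapped, and the change was -0.66 (SE 0.28, limma adjusted p = 0.624), or -0.41, past no threshold, with the 2 arrays exchanged. Cpt2, which turns acylcarnitine back into acyl-CoA inside the mitochondrion, differed between slides, at 2.12 on slide 1 and -0.31 on slide 2, so its fitted change of 0.50 rests on slide 1.

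In liver the carnitine genes were closer to each other, with 4 of 5 lower, a median log2 change of -0.38 and none past the unadjusted threshold. Cpt1a was at 3.27, 2.95 and 3.32 in survivin-deleted liver, against 3.77, 3.46 and 3.45 in wild-type liver, which do not overlap, and had a log2 change of -0.38. Slc25a20 was at 1.61, 1.06 and 1.85 in survivin-deleted liver, against 2.32, 1.33 and 2.07 in wild-type liver, a change of -0.40. Without survivin-deleted liver replicate 3 its change was -0.63, then at an unadjusted p under 0.05. Crat differed by -0.02 and Cpt2 by 0.01. The difference between the deletion change of Crat in HCC and that in liver was -0.76, above an unadjusted p of 0.05, which does not show that the tissues differ.

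**Figure D2:**
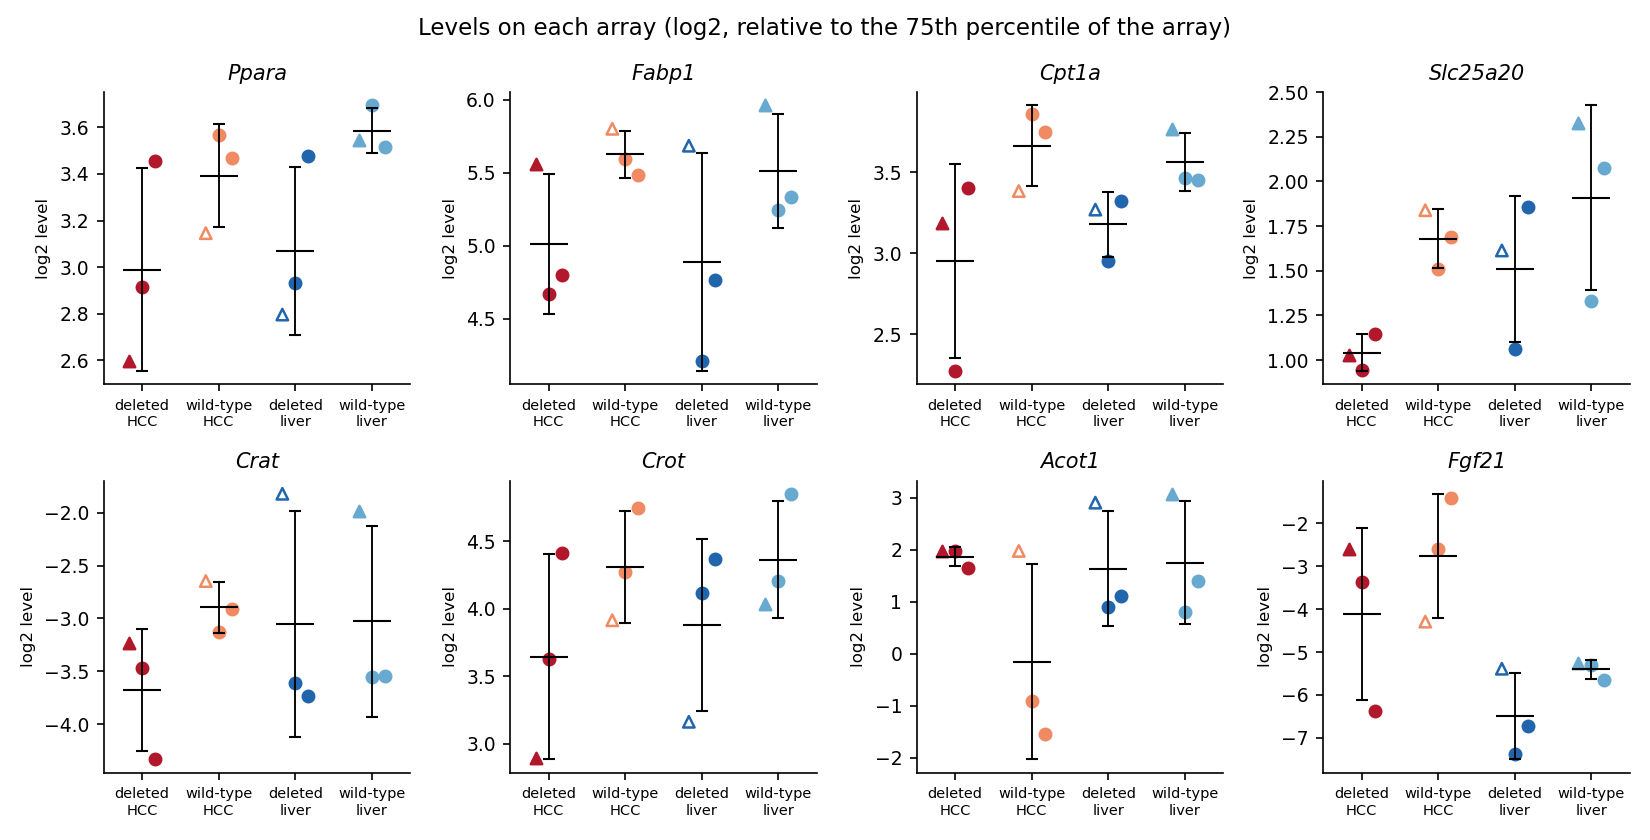
Log2 level of 8 of the genes on each array, relative to the 75th percentile of the array, in survivin-deleted HCC, wild-type HCC, survivin-deleted liver and wild-type liver. Triangles are slide 1, circles slide 2, open symbols the 2 arrays in doubt, and bars the mean with SD (n = 3). Slc25a20 and Crat do not overlap between survivin-deleted and wild-type HCC, and Acot1 is low on the 2 slide 2 arrays of wild-type HCC.

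The 8 genes of the mitochondrial spiral encode the very long, long, medium and short-chain dehydrogenases (Acadvl, Acadl, Acadm, Acads), both subunits of the trifunctional protein (Hadha, Hadhb), the thiolase Acaa2 and the dienoyl-CoA reductase Decr1. In survivin-deleted HCC 7 of 8 were lower with a median log2 change of -0.25, and in survivin-deleted liver 8 of 8 were lower with a median of -0.31. Exchanging the 2 arrays left 5 of 8 lower in each tissue, with medians of -0.05 in HCC and -0.20 in liver. None of the 8 passed the unadjusted threshold in HCC and 1, Acaa2, passed it in liver. Acaa2, which cleaves the final acetyl-CoA, was at 4.30, 4.22 and 4.60 in survivin-deleted liver, against 4.76, 4.80 and 4.86 in wild-type liver, where the SD was 0.05 (n = 3). All 3 survivin-deleted livers lay below all 3 wild-type livers. The change was -0.43 (SE 0.16, limma adjusted p = 0.416), -0.30 and past no threshold with the 2 arrays exchanged, and -0.54 without survivin-deleted liver replicate 3.

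Acadm, the medium-chain dehydrogenase, was at 3.30, 2.80 and 3.33 in survivin-deleted HCC, against 3.68, 3.41 and 3.58 in wild-type HCC, groups that do not overlap (log2 change -0.41, above an unadjusted p of 0.05). Acads, for short chains, was at 1.48, 1.58 and 1.87 in survivin-deleted liver, against 2.06, 1.96 and 2.21 in wild-type liver, again without overlap (log2 change -0.43, likewise above it). Without survivin-deleted liver replicate 3 the Acads change was -0.58, then at an unadjusted p under 0.05. Hadha, which together with Hadhb forms the trifunctional protein, was at 1.82, 1.61 and 1.89 in survivin-deleted HCC, against 1.98, 2.14 and 1.98 in wild-type HCC, and its change of -0.26 became 0.02 with the 2 arrays exchanged. Acadvl differed by -0.25 in HCC and -0.01 in liver, and Decr1 by -0.11 in HCC and -0.25 in liver, all with overlapping groups. For Hadhb in liver, 1 array carried the difference. It was at 1.95, 3.53 and 3.84 in survivin-deleted liver, against 3.25, 3.66 and 3.79 in wild-type liver. The change of -0.47 came from the array labelled survivin-deleted liver replicate 1, since it was -1.30 on slide 1 and -0.04 on slide 2, and 0.00 with the 2 arrays exchanged. Leaving out survivin-deleted liver replicate 3, which keeps that array, gave -0.72 for Hadhb, at an unadjusted p under 0.05. Acadl likewise had 2.30 on slide 1 and -0.31 on slide 2 for deletion in HCC, around a fitted 0.56. Acadl was at -0.19 on the array labelled wild-type HCC replicate 1 and at 1.78 and 1.89 on the other wild-type HCC arrays. On slide 1 the tumour of the survivin-deleted genotype, at 2.11, stood above the 3 other arrays, which were at -0.19, 0.12 and 0.46.

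The electron transfer flavoprotein (Etfa, Etfb) and its dehydrogenase (Etfdh) pass electrons from the dehydrogenases to the respiratory chain. Of these 3, 2 were lower after deletion in each tissue, with medians of -0.14 in HCC and -0.24 in liver, and none was past the unadjusted threshold. Etfdh was at 1.40, 2.33 and 2.99 in survivin-deleted HCC, against 1.41, 2.76 and 2.98 in wild-type HCC, and at 1.59, 2.91 and 3.21 in survivin-deleted liver, against 2.23, 2.89 and 3.42 in wild-type liver. Within each group Etfdh was lowest on slide 1, and the groups overlapped. Etfb was at 5.28, 4.53 and 4.88 in survivin-deleted HCC, against 5.94, 4.64 and 4.84 in wild-type HCC, a log2 change of -0.24, which was also its change in liver. Etfa, at 4.71, 3.66 and 4.10 in survivin-deleted HCC, against 3.08, 4.02 and 4.10 in wild-type HCC, differed by 1.63 on slide 1 and by -0.18 on slide 2.

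The 4 peroxisomal genes were lower in survivin-deleted liver and had no common direction in HCC, with no call in either tissue. They encode the bifunctional enzyme Ehhadh, the thiolases Acaa1a and Acaa1b and the dienoyl-CoA reductase Decr2. In survivin-deleted HCC 1 of 4 was lower, with a median log2 change of 0.13, and in survivin-deleted liver 4 of 4 were lower, with a median of -0.41. After the exchange of the 2 arrays 2 of 4 were lower in HCC, with a median of 0.05, and 3 of 4 in liver, with a median of -0.42. On slide 1 Acaa1a, Acaa1b and Decr2 were lower in survivin-deleted HCC, and on slide 2 Acaa1a and Acaa1b were higher. Ehhadh, a classical PPAR-alpha target in mouse liver, was at 1.70, 2.59 and 3.21 in survivin-deleted liver, against 2.25, 3.15 and 3.60 in wild-type liver. Each slide had the survivin-deleted arrays lower on average, by -0.50 in the fit, by -0.52 with the 2 arrays exchanged and by -0.69 without survivin-deleted liver replicate 3, of which the last 2 were at an unadjusted p under 0.05. In HCC its deletion change was 0.13. The difference between the 2 deletion changes of Ehhadh was 0.63, past no threshold, and 0.82, at an unadjusted p under 0.05, without survivin-deleted liver replicate 3. Decr2 was at 1.28, 2.53 and 2.96 in survivin-deleted liver, against 2.24, 2.82 and 3.20 in wild-type liver (log2 change -0.50, past no threshold). Its change was -0.67, at an unadjusted p under 0.05, without survivin-deleted liver replicate 3. Acaa1b was at 4.93, 3.71 and 4.33 in survivin-deleted liver, against 4.90, 4.33 and 4.73 in wild-type liver, level on slide 1 and lower on slide 2 (log2 change -0.33). Acaa1a differed by -0.01 in liver and by 0.15 in HCC, both within the spread between arrays.

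**Figure D3:**
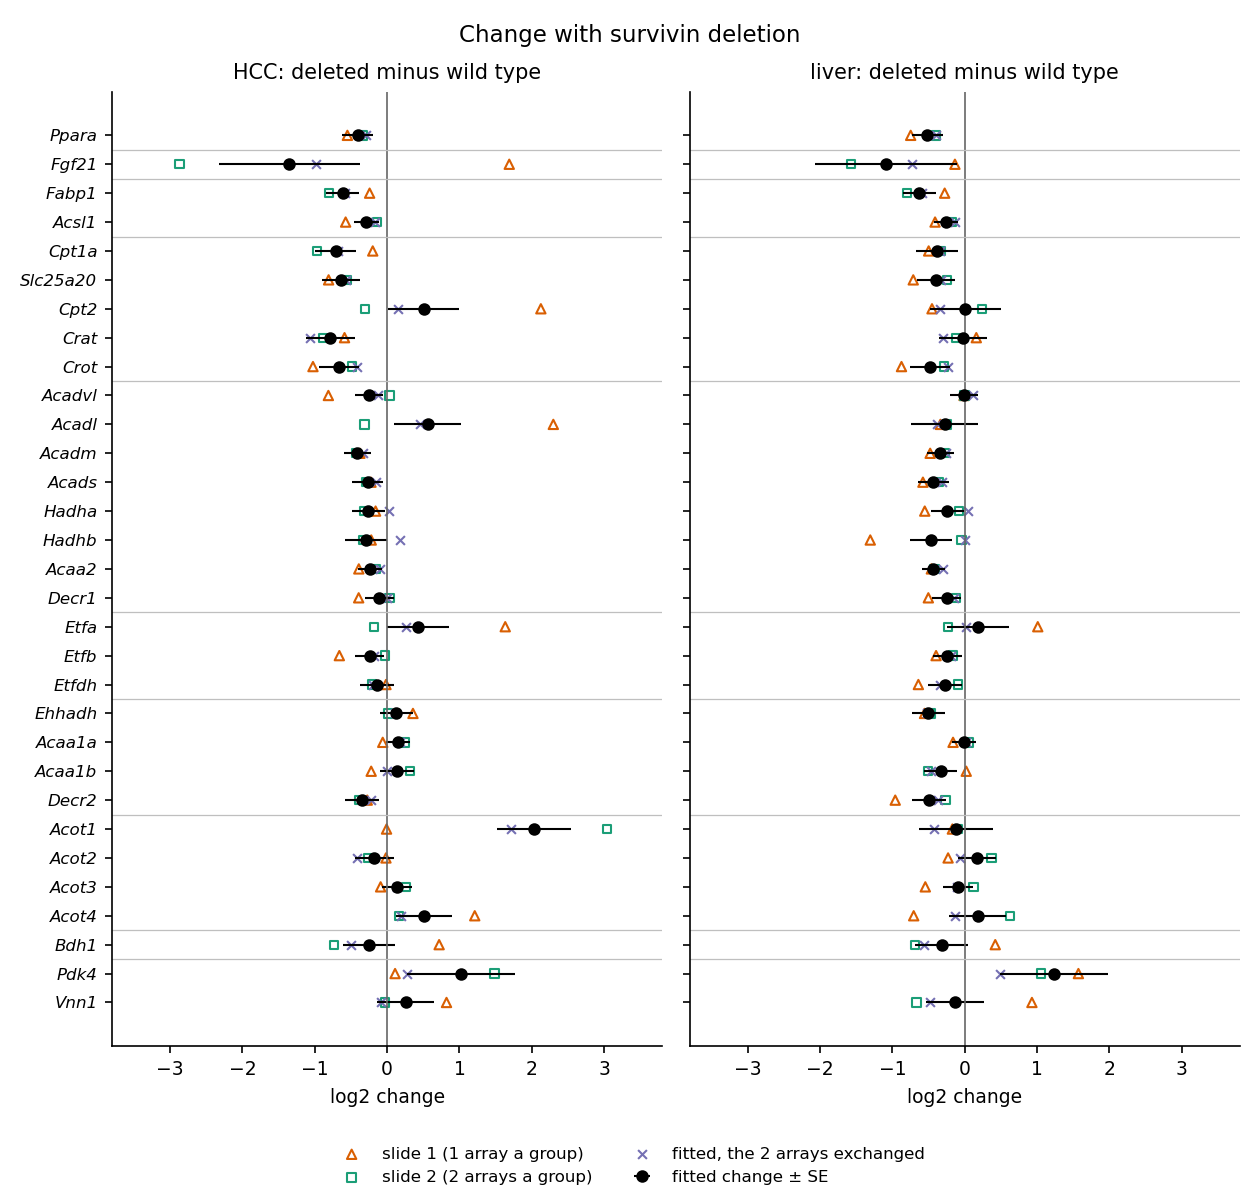
Log2 change of each gene with survivin deletion in HCC (left) and in liver (right). Black dots are the fitted changes with SE, orange triangles slide 1 (1 array a group), green squares slide 2 (2 arrays a group) and purple crosses the fit with the 2 arrays exchanged. Most dots lie left of 0 in liver, and Acot1 in HCC is the member farthest to the right, at 2.03.

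The 4 thioesterases release free fatty acids from acyl-CoA. Acot1 is the cytosolic and Acot2 the mitochondrial enzyme, and Acot3 and Acot4 are peroxisomal. Acot1 had the lowest p of all members: its level was 1.97, 1.98 and 1.65 in survivin-deleted HCC, against 1.98, -0.91 and -1.54 in wild-type HCC. In liver it was at 2.91, 0.90 and 1.10 in survivin-deleted arrays, against 3.08, 0.80 and 1.39 in wild-type arrays. The 2 wild-type HCC arrays of slide 2 were therefore the low ones, and survivin-deleted HCC did not show the drop between slides that the other 3 groups showed. The log2 change with deletion in HCC was 2.03 (SE 0.51, 4.07-fold, limma adjusted p = 0.538). It was -0.01 on slide 1 and 3.04 on slide 2, where its limma adjusted p was 0.0690, and 1.72 with the 2 arrays exchanged. Leaving out each array in turn gave 1.61 to 2.76, and the exact two-sided permutation p over the 3 against 3 arrays was 0.4. In liver the change was -0.12.

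The rest of the thioesterase cluster had smaller differences, each within the spread between arrays. Acot2 was at -2.95, -1.14 and -1.27 in survivin-deleted HCC, against -2.93, -0.98 and -0.91 in wild-type HCC. Acot3 was at 2.95, 3.21 and 3.59 in survivin-deleted HCC, against 3.04, 3.13 and 3.15 in wild-type HCC. Acot4 was at -0.46, 0.01 and 0.32 in survivin-deleted HCC, against -1.67, -0.32 and 0.33 in wild-type HCC. All 3 pairs of groups overlapped, with log2 changes of -0.18, 0.14 and 0.51. As given above, the probe of Acot1 shares at most 9 consecutive bases with the probes of its neighbours. Its match to their transcripts was not tested.

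Bdh1, which makes the ketone body beta-hydroxybutyrate, Pdk4, which holds back pyruvate dehydrogenase, and Vnn1, a pantetheinase, lie outside the spiral. Bdh1 had a log2 change of -0.25 in HCC, 0.72 on slide 1 and -0.74 on slide 2, and of -0.32 in liver. Pdk4 was at 0.71, 1.22 and -1.59 in survivin-deleted HCC, against 0.60, -2.29 and -1.05 in wild-type HCC. In survivin-deleted liver it was at 2.84, -0.63 and 1.01, against 1.27, -1.47 and -0.27 in wild-type liver. Pdk4 was thus one of the few members higher after deletion in both tissues, by a log2 difference of 1.23 in liver, past no threshold, which was 0.48 with the 2 arrays exchanged. Without survivin-deleted liver replicate 3 the Pdk4 difference in liver was 0.91, also past no threshold. Vnn1 differed by 0.26 in HCC and by -0.14 in liver, with overlapping groups.

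The second comparison set tumour against liver within each genotype, with the same arrays as above, so the 2 sets of comparisons are not independent. In the survivin-deleted genotype 20 of 31 members were lower in HCC than in liver, where 55.8% of all genes were, with medians of -0.12 for the members and -0.04 for all genes. In the wild-type genotype 24 of 31 (77.4%) were lower in HCC, where 44.6% of all genes were, with medians of -0.18 and 0.04. At an adjusted p under 0.05 (limma), 0 members and 0% of all genes were called in survivin-deleted tissue, and 0 members and 0% in wild-type tissue. At an unadjusted p, 1 member was past the threshold in survivin-deleted tissue, where 4.4% of all genes were, and 5 were in wild-type tissue, where 6.09% were. Both counts include Fgf21, which is described below without a test. The 4 others in wild-type tissue were lower in HCC (2.43% of all genes). The wild-type count was 1 without the slide block (1.67% of all genes), 3 without wild-type liver replicate 1 (2.79%), 2 without wild-type HCC replicate 2 (5.26%), 2 without wild-type liver replicate 3 (8.27%) and 1 without wild-type HCC replicate 3 (3.59%). Without survivin-deleted liver replicate 3, 17 members (54.8%) were lower in survivin-deleted HCC, where 57.8% of all genes were, and 0 were past the unadjusted threshold, where 2.66% of all genes were.

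Fgf21 passed the filter through wild-type HCC alone, so its tumour levels against liver are a description. With the levels given above, all 3 wild-type HCC arrays were above all 3 wild-type livers, and the survivin-deleted HCC array at -6.37 lay among the survivin-deleted livers. The probe was above background on 2 of 3 survivin-deleted HCC arrays and 3 of 3 wild-type HCC arrays, against 1 of 3 arrays in each liver group, so no fold is given.

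In wild-type tissue the other members past the unadjusted threshold were 2 peroxisomal genes, Acads and Acot1, all lower in HCC. Ehhadh was at 1.64, 2.99 and 2.53 in wild-type HCC, against 2.25, 3.15 and 3.60 in wild-type liver (log2 change -0.61). Acaa1b was at 4.50, 3.93 and 3.76 in wild-type HCC, against 4.90, 4.33 and 4.73 in wild-type liver (log2 change -0.59, and -0.45 with the 2 arrays exchanged, above an unadjusted p of 0.05). Both were lower in HCC on each slide, and all 4 peroxisomal genes were lower, with a median of -0.46. Acads was at 1.83, 1.56 and 1.41 in wild-type HCC, against 2.06, 1.96 and 2.21 in wild-type liver, without overlap (log2 change -0.47, and -0.59 with the 2 arrays exchanged). Acot1 differed by -1.91 (SE 0.51, 3.77-fold, limma adjusted p = 0.751), -1.10 on slide 1 and -2.32 on slide 2, and by -1.60 with the 2 arrays exchanged. In survivin-deleted tissue the same gene differed by 0.23.

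**Figure D4:**
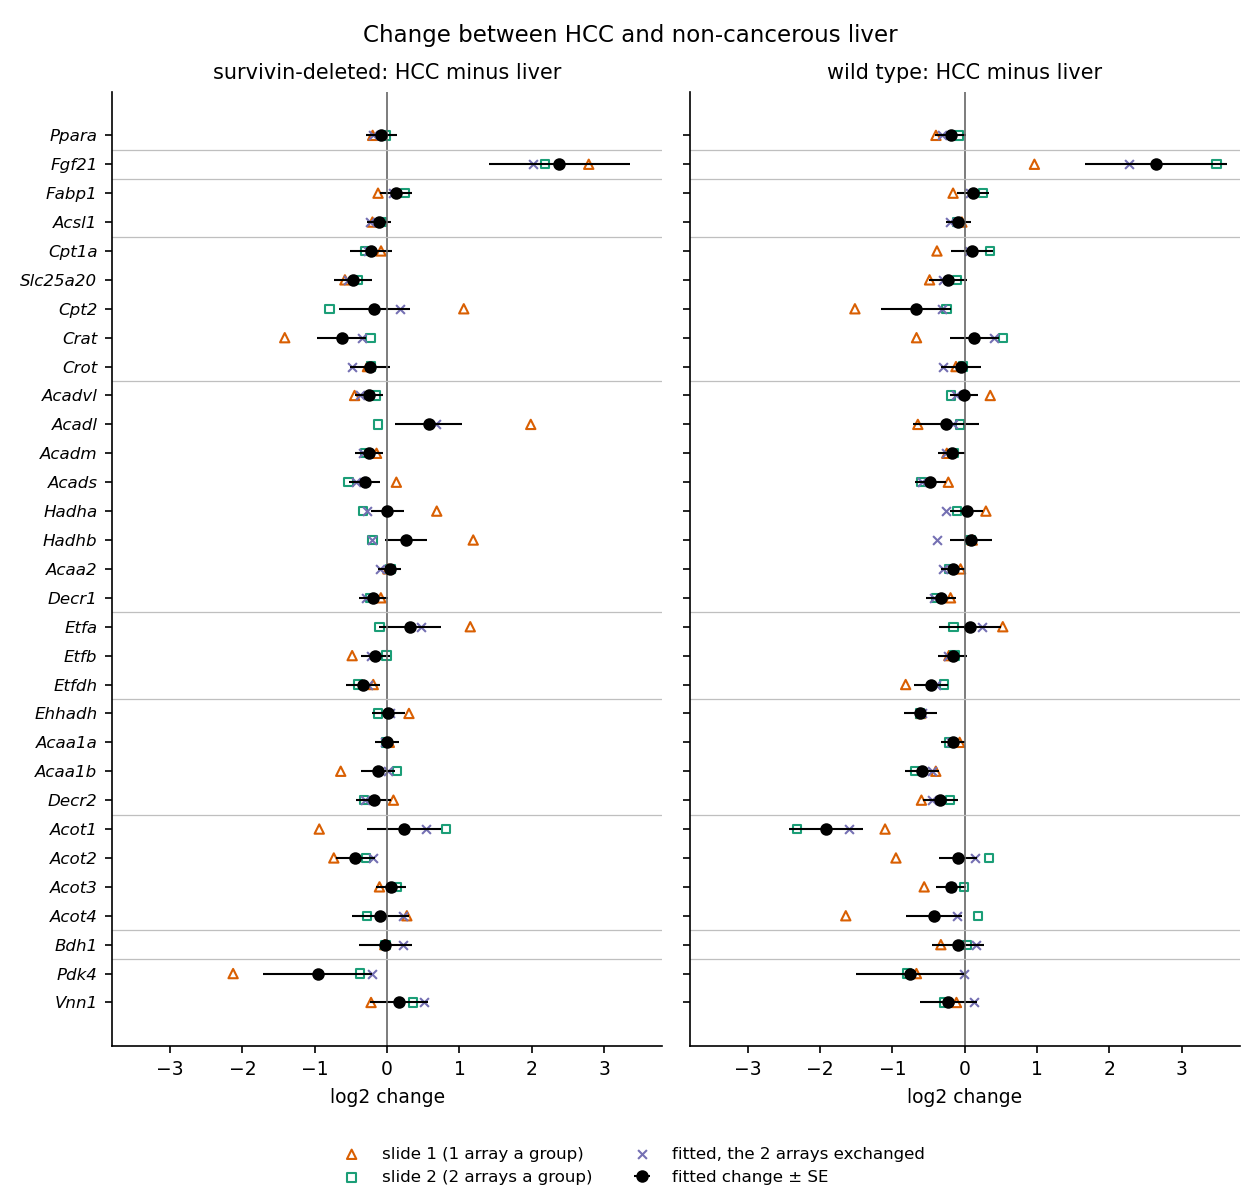
Log2 change of each gene in HCC against liver, in the survivin-deleted genotype (left) and in the wild-type genotype (right). Black dots are the fitted changes with SE, orange triangles slide 1, green squares slide 2 and purple crosses the fit with the 2 arrays exchanged. Acot1 lies to the left in wild-type tissue, at -1.91. Fgf21 was at background on most liver arrays, and its place here is no measured fold.

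The third comparison asked whether the deletion change in HCC differed from that in liver. At an adjusted p under 0.05 (limma), 0 members and 0% of all genes were called, and at an unadjusted p 1 member was, where 3.29% of all genes were. That member was Acot1, with a difference of 2.15 (SE 0.73, limma adjusted p = 0.912). It was 0.16 on slide 1 and 3.14 on slide 2, and it stayed at an unadjusted p under 0.05 with the 2 arrays exchanged but not without the slide block. The median difference was 0.13 over the members and -0.06 over all genes.

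The mitochondrial and the peroxisomal steps were compared per array as the mean log2 level of 14 mitochondrial genes minus that of 5 peroxisomal genes, one of them Crot. The difference itself has no meaning, because the probes differ, but it can be compared between groups. It was 0.01, -0.74 and -0.58 in survivin-deleted HCC, against -0.36, -0.45 and -0.41 in wild-type HCC, and -0.39, -0.45 and -0.53 in survivin-deleted liver, against -0.47, -0.52 and -0.71 in wild-type liver. The 3 survivin-deleted HCC arrays spread around the wild-type ones on both sides, and the liver groups overlapped. The group difference with deletion was -0.03 in HCC, 0.37 on slide 1 and -0.23 on slide 2, and 0.11 in liver, 0.08 on slide 1 and 0.13 on slide 2. In HCC it was -0.16 without Crot, -0.17 with the spiral enzymes only and -0.16 with the thioesterases added, and in liver 0.08, 0.03 and 0.02. Between HCC and liver it was 0.02 in survivin-deleted tissue, 0.40 on slide 1 and -0.16 on slide 2, and 0.16 in wild-type tissue, 0.11 and 0.19 on the 2 slides. Behind the wild-type value, the mitochondrial mean differed by -0.19 and the peroxisomal mean by -0.35. Behind the liver deletion value they differed by -0.25 and -0.36. In wild-type tissue all 3 HCC arrays were above all 3 livers, and the 0.16 was larger than the SD of wild-type HCC, 0.04, and of wild-type liver, 0.13 (n = 3 each), while it was 0.26 with the spiral enzymes only, 0.24 without Crot and -0.04 with the other oxidation genes in place of the members. The SD was 0.39 in survivin-deleted HCC and 0.07 in survivin-deleted liver (n = 3 each), and each other group difference was within the larger SD of its 2 groups. These SDs span both slides. For deletion in liver the score was lower in 0 of 3 pairs of same-numbered arrays, and in 2 of 3 with the thioesterases added.

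**Figure D5:**
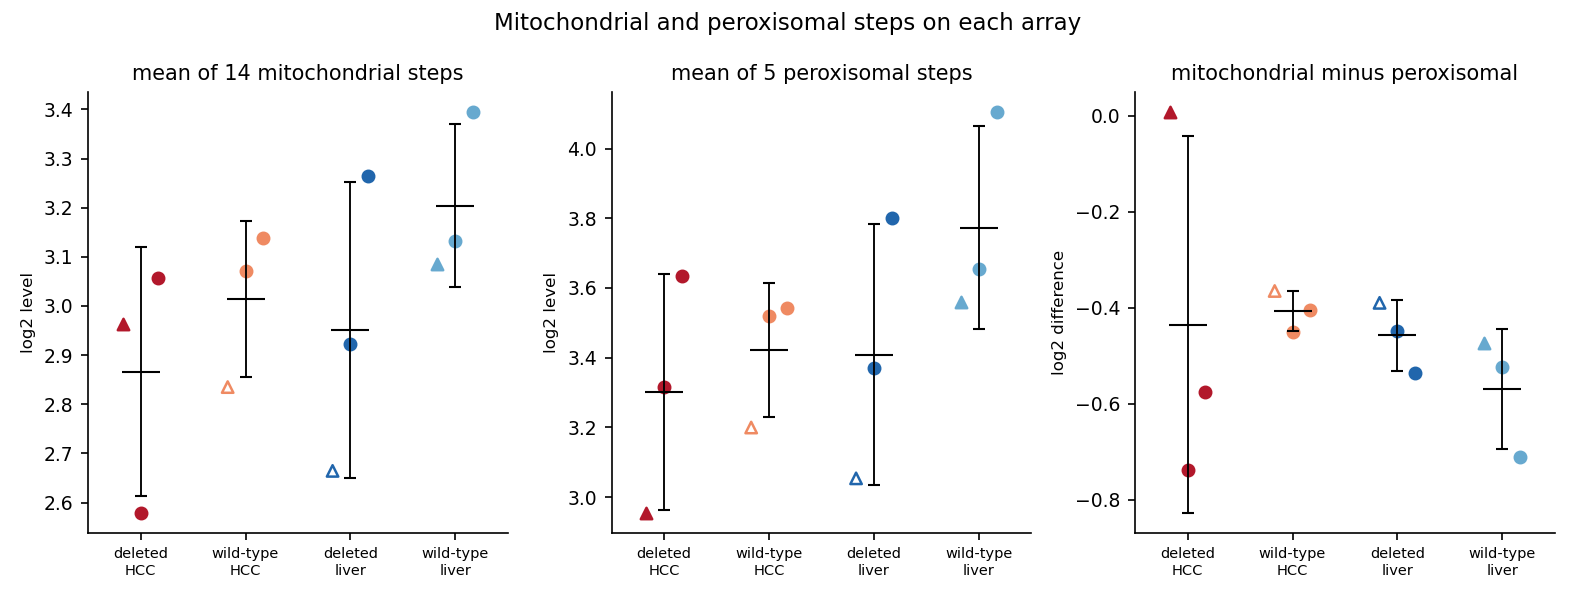
Mean log2 level of the 14 mitochondrial genes (left), of the 5 peroxisomal genes (middle) and the difference of the 2 (right) on each array, for survivin-deleted HCC, wild-type HCC, survivin-deleted liver and wild-type liver. Triangles are slide 1, circles slide 2, open symbols the 2 arrays in doubt, and bars the mean with SD (n = 3). In the right panel the survivin-deleted HCC arrays lie between -0.74 and 0.01, on both sides of the wild-type HCC arrays.

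For several of the 8 members with more than 1 probe, the value depended on the probe. Cpt2 was read above by its 3′ probe, which gave 0.50 in HCC and 0.01 in liver, while its probe at chr4:107580325-107580384 (mm9), nearer the 5′ end, was at 1.16, -2.46 and -0.65 in survivin-deleted HCC, against 1.66, -0.04 and 0.10 in wild-type HCC. That probe was lower on both slides, by -1.22 in HCC and by -0.80 in liver. The Etfa probe nearer the 5′ end, at chr9:55343560-55343619, was at 3.34, 2.98 and 3.42 in survivin-deleted HCC, against 3.91, 3.82 and 4.0 in wild-type HCC, without overlap. Its change was -0.66 in HCC and -0.55 in liver, where the 3′ probe gave 0.43 and 0.18. For Cpt1a the probe at chr19:3384060-3384119 gave -1.35 in HCC and -0.54 in liver, the direction of the 3′ probe at -0.71 and -0.38. The HCC changes of all 3 of these probes were at an unadjusted p under 0.05, and none passed at an adjusted p. Taking the 5′-most probe of every gene, which was chosen after the data were seen, gave 9 members past the unadjusted threshold in HCC, where 8.42% of all genes were, and 3 in liver, where 12.1% were. In liver the chosen probe and another also differed for Bdh1, at -0.32 against -1.25, for Acsl1, at -0.26 against -0.68, and for Acot3, at -0.10 against 0.67. The first 2 kept their direction and Acot3 did not.

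Over 2390 genes with probes 300 to 3000 bases apart, the median of the 5′ minus the 3′ level was -0.09 to -0.03 in survivin-deleted HCC, against 0.01 to 0.05 in wild-type HCC, and -0.10 to 0.11 in survivin-deleted liver, against 0.02 to 0.05 in wild-type liver. This measure of transcript ends differed with deletion by -0.08 in HCC and by -0.06 in liver, where it was 0.06 on slide 1 and -0.11 on slide 2. Its part in the changes of Cpt1a, Cpt2 and Etfa was not tested.

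Of the other genes of the pathway, listed without the members, 0 passed the adjusted threshold in any of the 5 comparisons (limma), and few passed the unadjusted one. Of 19 other genes of mitochondrial oxidation, 11 were lower in survivin-deleted HCC (median -0.10), where 52.6% of all genes were. In survivin-deleted liver 14 were lower (median -0.25), where 44.9% of all genes were. Past the unadjusted threshold were 0 in HCC, where 7.91% of all genes were, and 2 in liver, where 11.8% of all genes were. The 2 were the medium-chain acyl-CoA synthetases Acsm3, at -1.0, and Acsm5, at -0.82, of which Acsm3 stayed past it with the 2 arrays exchanged. Of 23 other peroxisomal genes, 12 were lower in survivin-deleted HCC (median -0.04), against 52.6% of all genes. In survivin-deleted liver 14 were lower (median -0.13), against 44.9% of all genes. Cat, which breaks down the hydrogen peroxide of the peroxisome, was past the unadjusted threshold in liver at -0.40, but not with the 2 arrays exchanged. In wild-type HCC against wild-type liver 17 of the 23 were lower, where 44.6% of all genes were. The bifunctional enzyme Hsd17b4 was at -0.89 there, and at -0.39 and past no threshold with the exchange. Of 7 measured genes of ketone body metabolism, 4 were lower in survivin-deleted HCC (median -0.22), against 52.6% of all genes. In survivin-deleted liver 5 were lower (median -0.40), against 44.9% of all genes, and none was past the unadjusted threshold in either tissue. Bdh2 was at -2.05 in HCC (SE 0.96) and -1.08 in liver, and with the 2 arrays exchanged its -2.22 in HCC was at an unadjusted p under 0.05. The medians in HCC changed sign with the 2 arrays exchanged, to 0.04 for the mitochondrial, 0.07 for the peroxisomal and 0.13 for the ketone list. In liver they became -0.13, -0.14 and -0.21.

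Of the 26 other known PPAR-alpha targets, 16 were lower in survivin-deleted HCC (median -0.13), where 52.6% of all genes were. In survivin-deleted liver 14 were lower (median -0.03), where 44.9% of all genes were. With the 2 arrays exchanged these medians were -0.09 in HCC and -0.08 in liver. In HCC 3 were lower at an unadjusted p under 0.05, where 4.46% of all genes were. These were the intestinal-type fatty acid binding protein gene Fabp2 at -1.91, the lipase inhibitor gene G0s2 at -0.82 and Creb3l3, which encodes a PPAR-alpha partner, at -0.56. Creb3l3 was not past that threshold with the 2 arrays exchanged. The fatty acid omega-hydroxylase gene Cyp4a14 was higher there by 2.45, and in wild-type tissue it was lower in HCC than in liver by -2.98. Acot1 showed the same 2 signs. For each gene both differences share the wild-type HCC arrays, where Cyp4a14 was at a mean of -2.13 (SD 2.59). The second sign is therefore not independent of the first. In HCC against liver 19 of the 26 were lower in survivin-deleted tissue (median -0.37), where 55.8% of all genes were (median -0.04). In wild-type tissue 23 were lower (median -0.25), where 44.6% of all genes were (median 0.04). The fatty acid transporter gene Cd36 was lower in HCC by -1.03 in survivin-deleted and by -1.20 in wild-type tissue, and G0s2 in survivin-deleted tissue by -1.24. The survivin-deleted values of the list and of these genes include survivin-deleted liver replicate 3, with its high adipocyte and muscle markers. They are not given without it, and its part in them was not tested. Of 22 PPAR partners and coregulators, 14 were lower in survivin-deleted HCC, where 52.6% of all genes were, and 15 in survivin-deleted liver, where 44.9% were. Past the unadjusted threshold 1 of the 22 was lower in HCC (4.46% of all genes), the corepressor gene Ncor1 at -0.76. In liver 1 was (3.47% of all genes), the coactivator gene Lpin1 at -0.64. Neither was past it with the 2 arrays exchanged. The adjusted p of each gene named here was 0.416 or above.

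Marker genes of cell types moved beside these values. In tissue samples, fewer cells of a type and less RNA per cell cannot be told apart. Of all genes, 52.6% were lower with deletion in HCC and 44.9% with deletion in liver. The hepatocyte markers had a median log2 change of 0.00 with deletion in HCC, 7 of 15 lower, and of -0.30 in liver, where 12 of 15 were lower. Of these 12, 3 were at an unadjusted p under 0.05, where 3.47% of all genes were lower at that threshold. With the 2 arrays exchanged the hepatocyte medians were -0.08 in HCC and -0.19 in liver. The oxidation genes' medians beside these were -0.24 in HCC and -0.28 in liver, or -0.13 and -0.30 after the exchange. The T and NK cell markers were at a mean level of -1.32 to 0.02 in survivin-deleted HCC, against -2.33 to -1.41 in wild-type HCC, with 9 of 10 higher and a median change of 1.05, which was 0.60 after the exchange of the 2 arrays. In liver 9 of 10 were higher, with a median of 0.22, or -0.14 after the exchange. Of 6 B and plasma cell markers 5 were higher in survivin-deleted HCC, with a median of 1.05, or 1.21 after the exchange. In survivin-deleted liver all 5 erythroid (median -0.88), 7 endothelial (-0.22), 8 macrophage (-0.28) and 7 neutrophil markers (-0.30) were lower, and the cholangiocyte markers had a median of 0.56. With the 2 arrays exchanged these liver medians were -0.59, -0.54, -0.12, -0.12 and 0.49. In wild-type HCC against wild-type liver, where 44.6% of all genes were lower, all 8 macrophage and all 7 neutrophil markers were lower. Their medians were -0.86 and -0.81, or -1.06 and -0.72 after the exchange. The adipocyte and muscle markers of survivin-deleted liver replicate 3 are given above, and the medians for deletion in liver include that array. The part of these cell types in the changes of the oxidation genes was not tested.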

How the data were processed

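The 12 scanner files hold spot intensities; per the submitters' processing notes, the authors' processed intensity comes from Agilent Feature Extraction 10.7. The deposited value table holds log2 values whose 75th percentile per array is 0, as found by setting it against the scanner values, and served only as an alternative. From the intensities, log2 levels were computed, spots of a probe averaged, the array's 75th percentile over non-control probes subtracted, dim probes dropped (those not well above background on every array of 1 group or more), and the probe of highest mean taken per gene. That left 26518 genes. Slide was read from the array identifiers.

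limma 3.58.1 (R 4.3.3) fitted 4 group means with slide as a fixed block (7 residual degrees of freedom), with Benjamini-Hochberg adjustment at 0.05 over all genes in each of 5 comparisons. The fit was checked on simulated data with known changes for deletion in HCC. At the adjusted threshold it recovered 24% of log2 changes of 1 and 65% of log2 changes of 2. A count of 0 calls therefore does not show that the members did not change. Replicate numbers pair arrays through the slide: deviations from group means of same-numbered arrays correlated at 0.279 to 0.738 in 18 comparisons, but within slide 2 at -0.0898 to 0.284, with 2 of 6 over 0.1. Any member may be named; of each other pathway list, up to 4 genes of smallest p per comparison, and Birc5 always. The members and lists were chosen with earlier results of these data known. The 5′-most probe, and the peroxisomal score without Crot, were alternatives chosen after seeing the data. Arrays have no read depth; their number limits the precision. On each array 49.0% to 83.4% of spots were well above background, and 0 were saturated.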

Additional observations from a re-analysis of the deposited data

How the results depend on the processing

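No member passed at an adjusted p in any fit run, and no result reversed past a threshold. Genes called among all 26518 rose above 0 in few fits: for deletion in HCC 1 on slide 2 only, 2 without the 2 arrays in doubt and 0 to 2 with each array left out in turn, for deletion in liver 1 on slide 2 only and 0 to 2, and for HCC against liver in survivin-deleted tissue 0 to 1. With the replicate number as the block, or without a block, every member change was as with slide. The medians were thus again -0.24 in HCC and -0.28 in liver. The design fixes this, since every group holds 1 array of each replicate number, so it says nothing on stability. Of 155 member changes, 31 changed sign on slide 2 only, 23 with the 2 arrays exchanged and 13 under quantile normalization. The members' median for deletion in HCC was -0.13 with the exchange, -0.18 under quantile normalization and -0.299 to -0.108 with each array left out. The mitochondrial minus peroxisomal difference for deletion in liver, 0.11, was 0.0529 with the mean of all probes, 0.21 without the 2 arrays in doubt, -0.0101 with the 5′-most probe, 0.0238 with thioesterases added, 0.0303 with spiral enzymes only, 0.0819 without Crot, -0.0925 with the other oxidation lists and 0.0629 to 0.179 with each array left out. For wild-type HCC against liver, 0.16, it was 0.264 with spiral enzymes only, 0.236 without Crot and -0.0358 with the other lists. For deletion in HCC, -0.03, it was -0.165 without Crot, -0.175 with spiral enzymes only and -0.216 to 0.0895 with each array left out. The member median of HCC against liver in survivin-deleted tissue, -0.12, was -0.0418 under normexp, -0.20 with the arrays exchanged, -0.18 without both, -0.19 in the value table, -0.19 with the 5′-most probe and -0.215 to 0.00206 with each array left out. The median difference of the deletion changes, 0.13, was 0.0132 under quantile normalization, -0.00343 on slide 2 only and without both arrays, 0.00948 with the 5′-most probe and 0.00532 to 0.244 with each array left out. The causes were not tested. With 3 arrays a group, 1 array could move every count at an unadjusted p, and Fgf21 is limited by signal near background.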
